A study of Mus musculus with 6 samples.

Results

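Neutrophils are short-lived white blood cells that are made in the bone marrow and patrol the blood and tissues, the liver sinusoids among them. In livers of 3 wild-type (WT) mice and 3 SIRT7-/- mice measured by single-cell RNA sequencing, they were taken as cells in which at least 3 of the 8 genes Csf3r, Cxcr2, Retnlg, Ngp, Camp, Ltf, Mmp8 and Ly6g were detected together with S100a8 and S100a9, while the 5 genes Clec4f, C1qa, Cd3e, Siglech and Mzb1 of other liver immune cells were all at 0. This rule selected 146 of 11610 cells. All mice were 5 to 6 months old, and the labels give no other allele, diet, treatment or sex for either genotype. SIRT7 is a sirtuin, an enzyme that removes acyl groups from proteins. The labels name the genotype of the animal and no cell type, so that a difference in neutrophils cannot be assigned to SIRT7 in the neutrophils themselves. Each library was 1 liver, with hepatocytes and nonparenchymal cells mixed in equal numbers after collagenase digestion. Among the deposited cells, hepatocytes by their markers numbered 471 of 1243, 371 of 933 and 31 of 1094 in WT mice 1 to 3. In SIRT7-/- mice 1 to 3 they numbered 79 of 5609, 17 of 2179 and 116 of 552. The mouse was the unit of comparison.

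Neutrophils build their granules in sequence while they mature. Promyelocytes in the marrow first make the proteases of primary granules, such as Elane, Prtn3, Mpo and Ctsg. Myelocytes, which still divide, then make the proteins of secondary granules, such as Camp, Ngp, Ltf and Lcn2, and later cells make the gelatinase granule enzymes Mmp8 and Mmp9 and stop dividing. Mature neutrophils carry the chemokine receptor Cxcr2 and the receptor of granulocyte colony-stimulating factor Csf3r, and can make the cytokine Il1b. The cells were therefore divided by the 3 genes Camp, Ngp and Ltf against the 3 genes Cxcr2, Csf3r and Il1b. Granule-side cells had at least 2 of the first 3 detected and more of these than of the second 3. Mature-side cells had at least 2 of the second 3 and more of these than of the first 3, and the rest were called in between.

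Camp encodes the cathelicidin antimicrobial peptide, Ngp a neutrophilic granule protein of the same family, and Ltf the iron-binding protein lactotransferrin. These 3 secondary granule genes lie on 1 chromosome, at chr9:109847379-109849617 on the minus strand for Camp and at chr9:110419747-110423012 and chr9:111019271-111042767 on the plus strand for Ngp and Ltf, within 1.2 Mb of each other (GENCODE vM21, GRCm38). The genes used for the mature side lie on 3 other chromosomes, Cxcr2 at chr1:74153989-74161246, Csf3r at chr4:126024550-126044440, and Il1b at chr2:129364570-129371139 on the minus strand. The classes are defined by joint detection of the genes of each side, so that this joint detection is partly built in and no evidence of shared control. The sequences next to the starts of these genes are shown as a description, from RefSeq (GRCm38.p6). Each run reads 5′ to 3′ on the strand of its gene and ends at the base before the first annotated transcript start. Capitals mark matches, on either strand, to TTGCNNAA, a core bound by C/EBP factors (TTNNGCAA on the other strand), and to GAGGAA, a core bound by PU.1 (TTCCTC on the other strand).
Camp, chr9:109849618-109849706, minus strand: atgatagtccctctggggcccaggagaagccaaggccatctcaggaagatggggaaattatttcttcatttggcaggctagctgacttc
Ngp, chr9:110419597-110419746, plus strand: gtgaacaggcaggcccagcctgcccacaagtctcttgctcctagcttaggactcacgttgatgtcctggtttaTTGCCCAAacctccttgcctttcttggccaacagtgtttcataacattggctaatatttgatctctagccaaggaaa
Ltf, chr9:111019121-111019270, plus strand: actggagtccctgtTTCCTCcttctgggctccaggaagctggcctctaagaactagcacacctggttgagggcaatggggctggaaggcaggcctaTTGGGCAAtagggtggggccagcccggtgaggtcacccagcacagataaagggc
Cxcr2, chr1:74153839-74153988, plus strand: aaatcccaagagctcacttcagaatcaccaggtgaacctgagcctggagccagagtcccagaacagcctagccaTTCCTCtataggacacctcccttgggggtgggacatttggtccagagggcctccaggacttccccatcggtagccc
Csf3r, chr4:126024409-126024549, plus strand: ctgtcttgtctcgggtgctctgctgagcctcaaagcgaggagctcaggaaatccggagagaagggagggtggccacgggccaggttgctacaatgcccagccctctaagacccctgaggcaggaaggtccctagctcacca
Il1b, chr2:129371140-129371289, minus strand: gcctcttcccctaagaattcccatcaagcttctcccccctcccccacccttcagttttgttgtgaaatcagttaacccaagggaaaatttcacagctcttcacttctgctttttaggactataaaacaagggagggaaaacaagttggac
In the whole 250 bases before the RefSeq start, TTGCNNAA was found at Ngp and Ltf, and 9.56% of 32851 mouse promoters held it in a window of the same length. GAGGAA was found at Ltf, Cxcr2 and Csf3r, against 23.3% of all promoters. Some matches lie outside the stretches shown, one at Ngp and the one at Csf3r. Matches to the 2 motifs do not overlap in these windows, and they are a description of the letters only.

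The 6 marker genes of the neutrophils had the levels that their selection requires. Levels are given as CP10K, the unique molecular identifiers (UMIs, counted molecules) of a gene per 10000 UMIs of a cell. They serve to compare a gene between cells and not different genes with each other. S100a8 and S100a9, the paired subunits of the calcium-binding protein calprotectin, had means of 1094 and 1111 CP10K over the 146 cells. S100a8 was detected in 4.52% of 885 T cells at a mean of 3.9 CP10K, in 2.3% of 1085 hepatocytes at 0.156 CP10K and in 11.2% of 179 monocytes at 1.31 CP10K, although the median depth of 2324, 1955 and 1850 UMIs in those cells exceeded the 1756 UMIs of the neutrophils. Ngp was detected in 70.5% of the neutrophils, Retnlg, a resistin-like secreted protein, in 67.8%, Camp in 65.1% and Csf3r in 35.6%. The low share for Csf3r goes with the classes described below. The markers Prss34, Mcpt8 and Cpa3 of basophils were at 0 in all 146 cells, and 1 of 146 cells had a UMI of Siglecf, an eosinophil marker.

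The cells near the limits of the rule differed in level. The 54 cells in which exactly 3 of the 8 genes were detected had medians of 536 CP10K for S100a8 and 650 CP10K for S100a9 at a median depth of 1640 UMIs. The 47 cells just outside, with exactly 2 of the 8 genes, had medians of 184 and 330 CP10K at 1198 UMIs. A further 75 cells with S100a8 and S100a9 had none of the 8 genes, at medians of 9.87 CP10K for both. Of these, 72 were from SIRT7-/- mouse 1. The excluding genes removed 113 of 259 cells that met the other conditions, 105 of 208 in SIRT7-/- mouse 1, 8 of 15 in SIRT7-/- mouse 2 and none in the other 4 mice. Of the removed cells, 69 had both Clec4f and C1qa, which mark Kupffer cells, the resident macrophages of the liver. The 91 removed cells with 2 or more UMIs of the excluding genes had a median of 3187 UMIs and means of 29.2 CP10K for C1qa and 16.0 CP10K for Clec4f. The other 22 removed cells had a single such UMI and a median depth of 1738 UMIs, near that of the cells kept. Whether the removed cells were doublets or Kupffer cells holding neutrophil RNA was not tested.

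Neutrophils were rare in every liver. Of the cells of each mouse, they were 14 of 1243, 7 of 933 and 10 of 1094 in WT mice 1 to 3, and 103 of 5609, 7 of 2179 and 5 of 552 in SIRT7-/- mice 1 to 3. The shares were 1.13% (95% exact Clopper-Pearson interval 0.617 to 1.88), 0.75% (0.302 to 1.54) and 0.914% (0.439 to 1.67) in WT mice. In SIRT7-/- mice they were 1.84% (1.5 to 2.22), 0.321% (0.129 to 0.661) and 0.906% (0.295 to 2.1), so that SIRT7-/- mouse 1 was highest and SIRT7-/- mouse 2 lowest of all 6 and the genotypes overlapped. The intervals cover counting error only, and the hepatocytes in the denominator varied between mice as given above. The mean share was 0.93% ± 0.189 (SD, n = 3) in WT and 1.02% ± 0.764 (SD, n = 3) in SIRT7-/- mice. The difference of 0.0909 percentage points was within the spread between mice (p = 0.9, two-sided exact permutation test, in which 3 mice against 3 cannot go below 0.1). SIRT7-/- mouse 1 held 103 of the 146 cells. Without it the difference was -0.317 points, and with cells positive for Ptprc, the pan-leukocyte gene, as the denominator it was -0.541 points (exact permutation p = 0.4 and 0.7). Without the excluding genes it was 0.837 points, and with at least 2 or at least 4 of the 8 genes 0.385 and 0.311 points (exact permutation p = 0.9, 0.6 and 0.5).

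**Figure D1:**
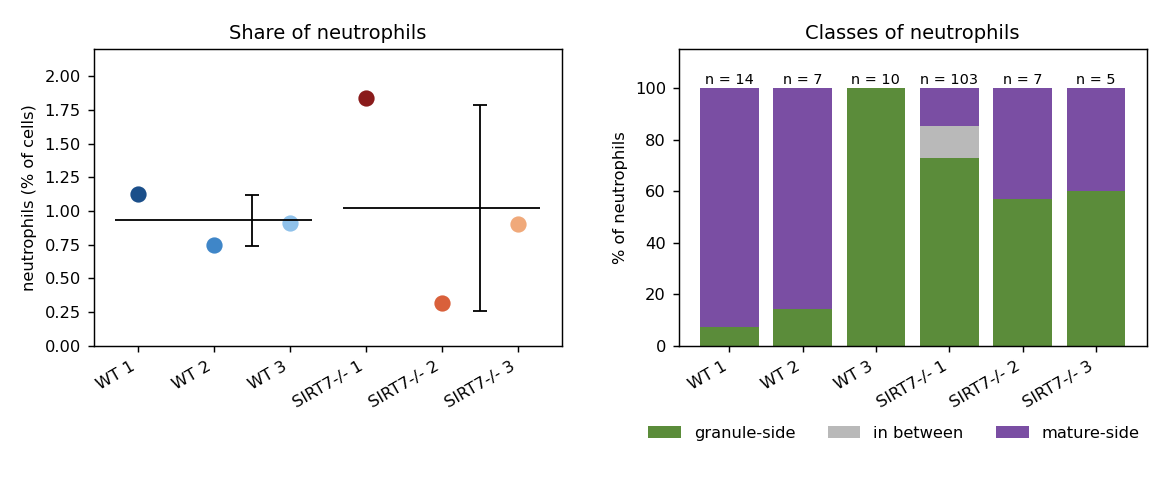
Left, neutrophils as a percentage of all cells of each mouse, 1 point per mouse, with the mean (line) and SD (bar) of each genotype; right, percentage of each mouse's neutrophils in the granule-side, in between and mature-side classes, with the number of neutrophils above each bar. The share ranged from 0.321% to 1.84% within SIRT7-/- mice, and the granule-side class ranged from 7.14% to 100% within WT mice.

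By these genes the selected neutrophils fell into 2 groups of cells with few in between. Camp, Ngp, Ltf, Cxcr2 and Csf3r both selected the cells and made the split. A cell with none of them entered only if Retnlg, Mmp8 and Ly6g were all detected. The rule therefore disfavours cells in between, and their low number is a description. Granule-side cells numbered 94 (64.4%), mature-side cells 39 (26.7%) and cells in between 13, all of the last from SIRT7-/- mouse 1. Of the 146 cells, 63 had all of Camp, Ngp and Ltf and none of Cxcr2, Csf3r and Il1b, and 27 had all of the latter and none of the former. In 4 cells all of Camp, Ngp and Ltf were detected with 2 of Cxcr2, Csf3r and Il1b, and in 0 cells with all 3 of these. The granule-side cells were deeper, with a median of 2206 UMIs against 1284 UMIs in mature-side cells. They nevertheless held fewer different genes at an equal depth, with a median of 415 genes in 92 granule-side cells and 605 genes in 35 mature-side cells after thinning each cell to 1000 UMIs. At the full depth the medians were 766 and 740 genes.

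**Figure D2:**
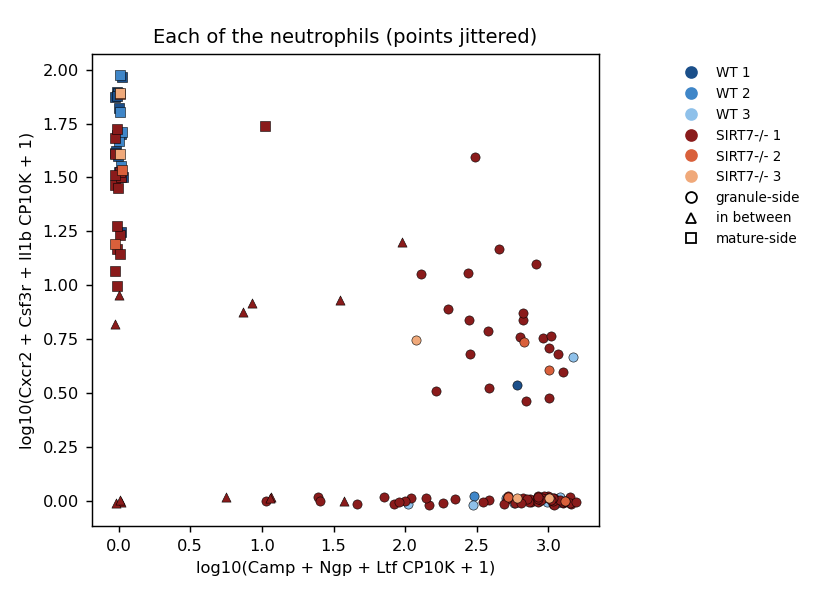
Each point is 1 of the 146 neutrophils, coloured by mouse and shaped by class, with the summed CP10K of Camp, Ngp and Ltf on the horizontal axis and of Cxcr2, Csf3r and Il1b on the vertical axis, both as log10(CP10K + 1). Mature-side cells stand in a column at 0 on the horizontal axis, with 38 of 39 cells at exactly 0, and 68 of the 94 granule-side cells lie at 0 on the vertical axis.

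The genes used for the split set its values, which are given as a description. Camp averaged 401 CP10K in granule-side cells, 0.598 in cells in between and 0 in mature-side cells. Ngp averaged 263, 15.2 and 0.226 CP10K in the same order, and Ltf 42.8, 0 and 0 CP10K. Il1b averaged 0.707, 0 and 20.6 CP10K, Csf3r 0.379, 1.69 and 14.4 CP10K, and Cxcr2 0.722, 2.18 and 9.19 CP10K. The cells in between thus had little of either set. Their mean of Retnlg was 236 CP10K, against 61.3 CP10K in granule-side and 52.5 CP10K in mature-side cells. Retnlg is itself a selecting gene, and the rule favours its detection in cells with little of the other selecting genes. S100a8 averaged 1448, 713 and 365 CP10K in the same order and S100a9 1414, 884 and 455 CP10K, so that calprotectin RNA was a larger part of the RNA of granule-side cells.

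Genes that were not used for the split also differed between the classes. Because the split was chosen on the same cells, these values are a description with no test. Levels were compared in mice with at least 3 cells of a class, which were WT mouse 3 and all 3 SIRT7-/- mice on the granule side, and WT mice 1 and 2 and SIRT7-/- mice 1 and 2 on the mature side. The genes of largest difference were ranked in SIRT7-/- mouse 1 alone, the only mouse with at least 5 cells of both classes. Of the 10 secondary granule genes, 9 were higher in every granule-side mouse than in every mature-side mouse, against 1.97% of 4071 genes for which this was so. Camp, Ngp and Ltf, which made the split, are 3 of these 9. Lcn2, the siderophore-binding lipocalin, was at 131 CP10K in WT mouse 3 and 112, 98.2 and 123 CP10K in SIRT7-/- mice 1 to 3 on the granule side. On the mature side it was at 9.21 and 3.63 CP10K in WT mice 1 and 2 and 4.78 and 11.7 CP10K in SIRT7-/- mice 1 and 2. Chil3, a chitinase-like protein, was at 44.5, 43.3, 56.2 and 29.7 CP10K in the granule-side mice and at 0 in all mature-side mice. The same pattern held for Serpinb1a, an inhibitor of the granule proteases, at 1.93 to 6.85 CP10K against 0. The surface protein Cd177 was at 3.05 to 8.36 CP10K against 0. Cebpe, the transcription factor needed for secondary granules, was at 3.43 to 5.28 CP10K on the granule side and at 0 to 1.49 CP10K on the mature side.

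Other genes with large differences had less familiar roles in neutrophils or were less even over the mice. Hmgn2, a nucleosome-binding protein, was at 8.75 to 13.1 CP10K on the granule side and at 0 to 5.55 CP10K on the mature side, and the interferon-induced family member Ifitm6 at 17.7 to 31.1 against 0 to 1 CP10K. AA467197 was at 1.06 to 4.02 CP10K against 0. Olfm4, a glycoprotein of a subset of granules, was at 18.9 CP10K in WT mouse 3 and 4.32 CP10K in SIRT7-/- mouse 1 and at 0 in SIRT7-/- mice 2 and 3. Jchain, the joining chain of immunoglobulins and thus a plasma cell marker, was among the ranked genes as well. On the granule side it was at 5.53 CP10K in SIRT7-/- mouse 1, 0.533 CP10K in WT mouse 3 and 0 in SIRT7-/- mice 2 and 3.

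On the mature side, 4.08% of the 4071 genes were lower in every granule-side mouse than in every mature-side mouse. Ifitm1, an interferon-induced membrane protein, was at 16.2, 5.67, 16.1 and 13 CP10K in the mature-side mice and at 0 to 0.725 CP10K in the granule-side mice. Dusp1, a phosphatase that ends MAP kinase signals, was at 24.8, 14.1, 8.71 and 7.65 CP10K against 0 to 1.73 CP10K. Il1f9, a cytokine of the interleukin 1 family, was at 1.68 to 5.47 CP10K against 0 to 1.6 CP10K. The chemokine Ccl6 was at 8.84, 7.22 and 4.49 CP10K in WT mice 1 and 2 and SIRT7-/- mouse 1 but at 0 in SIRT7-/- mouse 2, and Fos, an immediate-early transcription factor, at 3.27, 12.2, 4.34 and 0 CP10K. Cd69, Lmna and Ebf1, a B cell transcription factor, were at 4.13, 2.87 and 2.75 CP10K in the mature-side cells of SIRT7-/- mouse 1 and at 0 to 0.514 CP10K in those of the other 3 mice. B cell markers were detected in 3 neutrophils, all of them mature-side cells of SIRT7-/- mouse 1. Crip1 was at 20.5 and 13.2 CP10K in the mature-side cells of SIRT7-/- mice 1 and 2, at 0 in those of WT mice 1 and 2, and at 0 to 16.9 CP10K on the granule side. Gpcpd1 was at 0 to 3.96 CP10K against 0 to 1.41 CP10K. Of the 8 receptors of mature neutrophils that could be compared, 3 were lower in every granule-side mouse, Cxcr2 and Csf3r of the split among them. The proportion of proliferation genes that were higher in every granule-side mouse was 3 of 13.

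**Figure D3:**
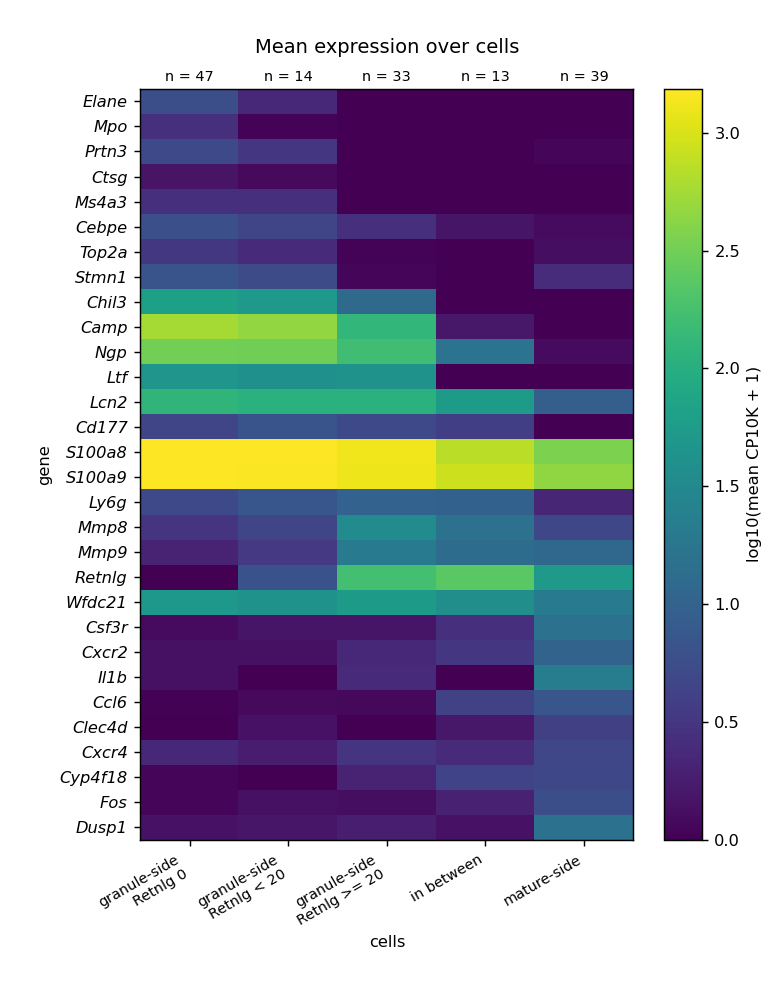
Mean level of 30 genes, as log10(mean CP10K + 1) in colour, in granule-side neutrophils divided by their Retnlg level in CP10K, in cells in between and in mature-side neutrophils, with the number of cells above each column. Primary granule and division genes are at the top left, Camp, Ngp, Ltf and Lcn2 fill the granule-side columns, Mmp8, Mmp9 and Retnlg are higher from the third column on than in the first and second, and Csf3r, Cxcr2, Il1b and Ccl6 are in the last.

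The granule-side cells were themselves not alike, and their Retnlg level, a division made after the values were seen, set them in order. Retnlg was at 0 in 47 of them, between 0 and 20 CP10K in 14, and at least 20 CP10K in 33. Top2a, a topoisomerase of dividing cells, was detected in 21 of the 47 cells without Retnlg, 5 of the 14 and 1 of the 33. The summed level of the proliferation genes was 88.6, 69.1 and 20.4 CP10K in the same order. Camp averaged 573, 468 and 128 CP10K and Chil3 62.9, 49.7 and 11.8 CP10K, while Ltf averaged 44.5, 38.9 and 41.9 CP10K and Lcn2 122, 107 and 108 CP10K. Mmp8, the neutrophil collagenase, averaged 2.14, 3.62 and 33.3 CP10K, and Mmp9, the gelatinase, 1.01, 2.36 and 19.1 CP10K. Elane was detected in 9, 4 and 0 cells. The depths were not equal, with medians of 2607, 3158 and 1464 UMIs. SIRT7-/- mouse 1 gave 40, 11 and 24 of these cells, and WT mouse 3 gave 5, 0 and 5.

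Cells with primary granule genes were found in the SIRT7-/- libraries. At least 2 of the primary granule genes Elane, Mpo, Prtn3 and Ctsg were detected in 11 granule-side cells, 8 of SIRT7-/- mouse 1, 2 of SIRT7-/- mouse 2 and 1 of SIRT7-/- mouse 3. These 11 cells had 20.8 CP10K of Elane, the neutrophil elastase, and 19.4 CP10K of Prtn3, proteinase 3. Their mean of Mmp8 was 0, that of Retnlg 1.71 CP10K and that of the proliferation genes 114 CP10K, and 7 of them had Mki67 or Top2a. A further 6 cells with 1 of the primary granule genes were all from SIRT7-/- mouse 1. Among the 12 granule-side cells of the WT mice none had any of these genes, but 10 of the 12 came from 1 mouse, and the depth of the 11 cells (median 4350 UMIs) was above that of the 77 granule-side cells with none of these genes (1994 UMIs).

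The balance of the classes differed more between mice than between genotypes. In WT mouse 1, 1 of 14 neutrophils was granule-side (7.14%, exact interval 0.181 to 33.9), in WT mouse 2 1 of 7 (14.3%, 0.361 to 57.9), and in WT mouse 3 all 10 (100%, 69.2 to 100). In SIRT7-/- mice 1 to 3, granule-side cells were 75 of 103 (72.8%, 63.2 to 81.1), 4 of 7 (57.1%, 18.4 to 90.1) and 3 of 5 (60%, 14.7 to 94.7). WT mice 1 and 2 thus held almost only mature-side cells, WT mouse 3 held none, and the 3 SIRT7-/- mice lay between them. Of mice with at least 10 neutrophils there was 1 in the SIRT7-/- group, which allows no test, and the difference of the means was 19.2 percentage points. Over all 6 mice the mean was 40.5% ± 51.7 (SD, n = 3) in WT and 63.3% ± 8.35 (SD, n = 3) in SIRT7-/- mice (p = 0.4, two-sided exact permutation test). Without WT mouse 3, a choice of mice that follows from these values, the difference rose from 22.8 to 52.6 points. Its exact permutation p of 0.2 is the lowest that 2 mice against 3 can give.

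Of single genes, 29 of 2569 tested (1.13%) differed between SIRT7-/- and WT neutrophils at an adjusted p under 0.05 by limma, 10 higher and 19 lower in SIRT7-/- mice. The test used the mean CP10K over the neutrophils of each mouse plus 0.5, as log2, and the mice with 5 to 14 cells weigh as much in it as the mouse with 103. Among all genes tested, 3.93% were higher and 7.94% lower in every SIRT7-/- mouse than in every WT mouse. At an unadjusted p under 0.05 there were 217 genes. None of the genes of the neutrophil lists passed, although Camp did with limma's variance moderation run without trend and robust settings (limma adjusted p = 0.0165). Camp is among the genes that selected and split the cells, so that this value is no independent evidence of a genotype difference. The targeted gene, Sirt7, was too low for the test in these cells, with a UMI in 0, 1 and 0 cells of the WT and 1, 0 and 1 cells of the SIRT7-/- mice. Over all cells of the libraries it was at 0.718, 0.512 and 0.546 CP10K in WT and 0.1, 0.0814 and 0.139 CP10K in SIRT7-/- mice, so that the genotypes did not overlap. Whether its 3' reads lie within the deleted part is not given in the sources used here.

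The granule and receptor genes followed the classes of each mouse. Camp was at 18.4, 2.56 and 378 CP10K in WT mice 1 to 3 and at 302, 258 and 151 CP10K in SIRT7-/- mice 1 to 3, so that WT mouse 3 was above all others and WT mice 1 and 2 below (log2 difference 3.02, limma adjusted p = 0.799). Ngp was at 19.9, 29.4 and 364 against 179, 227 and 160 CP10K (1.63, limma adjusted p = 0.223). Ltf was at 4.73, 12.8 and 63.9 against 27.9, 27.5 and 32.8 CP10K. The mature genes were the other way round. Il1b was at 25.3, 19.3 and 0 CP10K in WT and 2.32, 11 and 13.2 CP10K in SIRT7-/- mice, and Csf3r at 17.4, 16.7 and 0 against 1.93, 4.25 and 6.01 CP10K. WT mouse 3 stood apart in each of these genes. Without it, a choice of mice that follows from these values, the log2 differences were 4.9 for Camp, 2.92 for Ngp, 1.84 for Ltf, 1.38 for S100a8, -2.05 for Csf3r and -1.56 for Il1b, all past the limma threshold, and 130 genes in place of 29 were called. All of these but Il1b are genes by which the cells were selected, so that the values are no independent evidence of a genotype difference.

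Within one class the values were as follows, as a description with no test, because few mice had enough cells of a class. In granule-side cells Camp was at 258, 17.9 and 378 CP10K in WT and 415, 451 and 251 CP10K in SIRT7-/- mice, where WT mice 1 and 2 gave 1 cell each. Ngp was at 279, 206 and 364 against 243, 397 and 267 CP10K. In mature-side cells, which WT mouse 3 lacked, Il1b was at 27.2 and 22.5 CP10K in WT mice 1 and 2 and at 11.9, 23.9 and 33 CP10K in SIRT7-/- mice 1 to 3. Cxcr2 was at 9.62 and 12.7 against 6.99, 8.9 and 12.8 CP10K. The genotypes overlapped in these 4 genes but not in Csf3r, which was at 18.7 and 19.5 CP10K in WT and 9.59, 9.14 and 15 CP10K in SIRT7-/- mature-side cells.

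Of the other lists, the 10 proliferation genes tested had a median log2 difference of 1.23 against -0.12 over all genes tested, and 3 of them were higher in every SIRT7-/- mouse, against 3.93% of all genes. Stmn1, a regulator of microtubules in dividing cells, was at 0.474, 0 and 1.96 CP10K in WT and 2.87, 7.78 and 3.07 CP10K in SIRT7-/- mice (2.13, limma adjusted p = 0.162). The summed proliferation genes were at 88.6 CP10K in granule-side cells without Retnlg, 20.4 in those with at least 20 CP10K of it and 31.1 in mature-side cells. WT mice 1 and 2 held almost only mature-side cells, so that the genotype difference cannot be told apart from the classes of each mouse. The 80 genes of the cytosolic ribosome had a median of 0.63 with 0 called, and 74 of them had a higher mean log2 level in SIRT7-/- mice, against 1132 of all 2569 genes tested. In SIRT7-/- mouse 1 the median of this list in granule-side minus mature-side cells was -0.905 on the log2 scale, against -0.724 over all genes. The cause of the shift between genotypes was not tested. Of the 3 primary granule genes tested, Prtn3 was at 0 in all WT mice and at 1.96, 2.63 and 1.53 CP10K in SIRT7-/- mice (limma adjusted p = 0.129). Elane was at 0 in all WT mice and at 2.23, 2.32 and 0.271 CP10K in SIRT7-/- mice (limma adjusted p = 0.378). The third, Ms4a3, overlapped between the genotypes, at 0, 0 and 0.786 CP10K in WT and 0.792, 1.98 and 0.361 CP10K in SIRT7-/- mice (limma adjusted p = 0.784). In SIRT7-/- mouse 3 all 26 UMIs of the primary granule genes came from 1 cell of 22174 UMIs, which also held monocyte markers. Against the 3 UMIs that a count of 0 allows over the 51794 UMIs of all WT neutrophils, the SIRT7-/- mean of Prtn3 was at least 3.52-fold and that of Elane at least 2.77-fold higher. These bounds pool the WT cells and cover counting error only, not the spread between mice. The limit was 0.579 CP10K, and the 0.271 CP10K of Elane in SIRT7-/- mouse 3 lay below it. Mature-side cells, almost the only class of WT mice 1 and 2, had 0.109 CP10K of Prtn3 and 0 of Elane over all mice. The 7 receptors of mature neutrophils had a median of -0.34, the 8 tertiary granule genes -0.24, the 10 secondary granule genes 0.86 and the 6 interferon-stimulated genes 0.78, with 0 called in each list. The medians of the 7 alarmins, 5 cytokines, 6 genes of ageing and homing, 6 NADPH oxidase genes and 9 transcription factors lay between -0.48 and 0.4, also with 0 called.

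The gene with the smallest p was Cd74, the invariant chain that escorts class II major histocompatibility (MHC) molecules to the endosome. It was at 0, 0 and 0.769 CP10K in the neutrophils of WT mice 1 to 3 and at 12.8, 16.4 and 22.7 CP10K in those of SIRT7-/- mice 1 to 3 (log2 difference 4.67 ± 0.658 SE, limma adjusted p = 3.49e-09). The genotypes did not overlap. The class II genes H2-Eb1, H2-Aa and H2-Ab1 rose with it, by 3.66, 2.94 and 2.82 on this scale. H2-Eb1 was at 0 in all WT mice and at 6.29, 5.24 and 5.95 CP10K in SIRT7-/- mice, at least 10.1-fold above the limit that a count of 0 allows in WT. This bound, like that given for Crip1, covers counting error only and not the spread between mice. The genes Crip1, an intestinal LIM-domain protein (0, 0 and 0 against 4.89, 15.3 and 2.98 CP10K, at least 13.4-fold), and Tmsb10, an actin-binding thymosin (0.386, 0 and 3.13 against 8.2, 15.4 and 4.4 CP10K), also passed. Ifi27l2a, an interferon-induced gene, was at 1.81, 0 and 0.435 against 3.01, 33.7 and 13.7 CP10K (3.54, limma adjusted p = 9.31e-05). The remaining 3 genes called higher were Ccl5, a chemokine of T and NK cells, BC018473, and Xist, the RNA of the inactive X chromosome. Xist was at 1.25, 0 and 5.59 CP10K in WT and 12.9, 22.9 and 2.93 CP10K in SIRT7-/- neutrophils.

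The cells that carried Cd74 were spread unevenly over the mice. It was detected in 0, 0 and 1 neutrophils of the WT mice, and in 39 of 103, 3 of 7 and 1 of 5 of the SIRT7-/- mice. In SIRT7-/- mouse 2 a single cell held 42 of the 46 UMIs of Cd74. The highest cell of that mouse held 14 of 15 UMIs for H2-Eb1 and 30 of 36 for Crip1. In SIRT7-/- mouse 3 all 252 UMIs of Cd74, 66 of H2-Eb1 and 33 of Crip1 came from 1 granule-side cell of 22174 UMIs, which also held 4 UMIs of Csf1r and 7 of Ms4a6c, both monocyte markers. In SIRT7-/- mouse 1 the mean of Cd74 was 35.7 CP10K in its mature-side and 10.1 CP10K in its granule-side cells. Without the 4 cells of more than 6000 UMIs, an alternative chosen after seeing the data, 11 genes were called. Cd74 then differed by 2.84 (limma adjusted p = 0.0942), Crip1 by 2.82 (limma adjusted p = 0.108), H2-Eb1 by 2.44 (limma adjusted p = 0.232) and Tmsb10 by 2.17 (limma adjusted p = 0.289), none of which passed. In T cells Cd74 was at 2.79, 2.89 and 25 CP10K in WT and 16.0, 14.9 and 18.1 CP10K in SIRT7-/- mice, and of the 10 genes called higher in neutrophils 9 had a higher mean log2 level in SIRT7-/- T cells as well. Monocytes held a mean of 79.1 CP10K of Cd74 and Kupffer cells 81.1 CP10K. Clec4f and C1qa were at 0 in all neutrophils, as the rule requires, and the sum of the 5 Kupffer cell markers was 0, 0 and 0.435 CP10K in WT and 1.52, 0.657 and 1.17 CP10K in SIRT7-/- neutrophils. The 3 NK cell markers were at 0 in the WT neutrophils and at 2.92, 2.62 and 0.361 CP10K in those of SIRT7-/- mice 1 to 3. Dendritic cell markers were at 0 in the WT neutrophils and were detected in 6 of 103 neutrophils of SIRT7-/- mouse 1, 0 of 7 of mouse 2 and 1 of 5 of mouse 3. The part of free RNA or of second cells in these values was not tested.

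The 19 genes called lower were, with 1 exception, genes of hepatocytes. Ttr, the thyroxine carrier transthyretin that hepatocytes secrete, was at 40.2, 38.2 and 13.1 CP10K in WT and 13.3, 0.442 and 5.98 CP10K in SIRT7-/- neutrophils (log2 difference -2.66, limma adjusted p = 0.00177), with an overlap of WT mouse 3 and SIRT7-/- mouse 1. Sult3a1, a sulfotransferase, was at 18.8, 24.4 and 5.78 against 3.57, 0 and 1.61 CP10K (-3.15, limma adjusted p = 0.000464). The glutathione transferase Gsta3, the carbonic anhydrase Car3 and the apolipoprotein Apoc3 fell by 2.75, 2.84 and 2.43 on the log2 scale. Among the 19, the mean in hepatocytes exceeded that in neutrophils for 18, with 79.2 against 16.2 CP10K for Ttr, and 18 had a lower mean in SIRT7-/- T cells too. In T cells Ttr was at 25.7, 17.6 and 13.7 CP10K in WT and 19.3, 2.72 and 6.63 CP10K in SIRT7-/- mice. The summed level of the 6 hepatocyte markers in neutrophils was 132, 137 and 37.2 CP10K in WT mice and 34.4, 9.95 and 64.9 CP10K in SIRT7-/- mice, with Serpina1a and Cps1 at 0 in SIRT7-/- mouse 2. It was 30.6 CP10K in granule-side and 93.3 CP10K in mature-side cells. The part of free hepatocyte RNA in these differences was not tested.

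**Figure D4:**
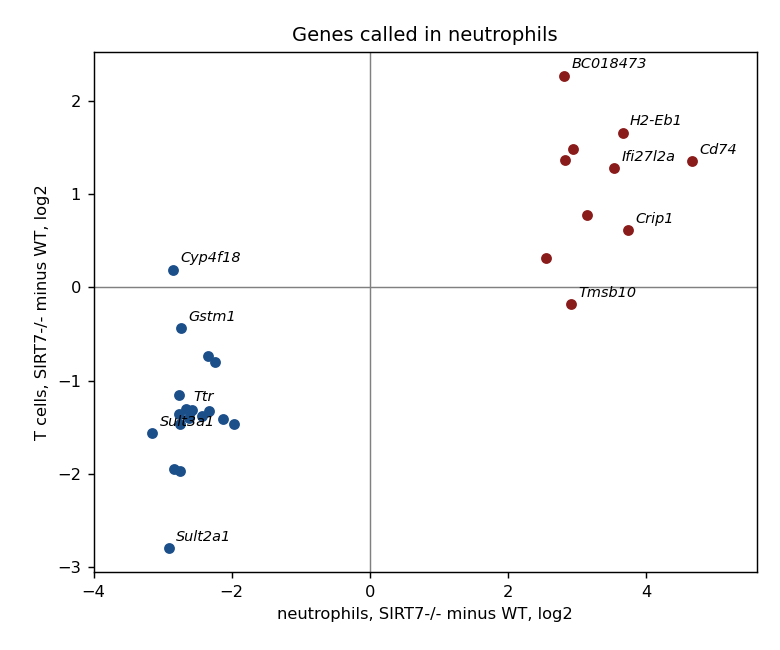
Each point is 1 of the 29 genes called in neutrophils, with its log2 difference, SIRT7-/- minus WT, in neutrophils on the horizontal axis and in T cells of the same libraries on the vertical axis. All but Cyp4f18 and Tmsb10 lie on the same side of 0 in both cell types, and the libraries are shared by both axes.

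The exception was Cyp4f18, which encodes the cytochrome P450 that inactivates leukotriene B4, a lipid attractant of neutrophils, and which was singled out after its values were seen. It was at 6.74, 5.97 and 2.08 CP10K in WT and 0.787, 0 and 0 CP10K in SIRT7-/- neutrophils, without overlap (log2 difference -2.85 ± 0.753 SE, limma adjusted p = 0.0179). Its mean was 1.63 CP10K in neutrophils, 0.895 in monocytes, 0.152 in T cells and 0.0406 in hepatocytes, and it was 0.349 in Kupffer cells. Monocytes thus held more of it than the neutrophils of any SIRT7-/- mouse, and B cells and dendritic cells were not compared. Among mature-side cells it was detected in 11 of 13 and 5 of 6 cells of WT mice 1 and 2 and in 2 of 15, 0 of 3 and 0 of 2 cells of SIRT7-/- mice 1 to 3. In granule-side cells it was detected in 3 of 10 cells of WT mouse 3 and 4 of 75 of SIRT7-/- mouse 1, and in 4 of 13 cells in between. In mature-side cells of the mice with at least 3 of them, WT mice 1 and 2 against SIRT7-/- mice 1 and 2, the log2 difference was -3.11 (limma adjusted p = 0.113). It did not pass when WT mouse 1 or 2 or SIRT7-/- mouse 2 or 3 was left out, where it lay between -2.58 and -2.66 (limma adjusted p from 0.0877 to 0.357), nor without the 4 deepest cells (-2.84, limma adjusted p = 0.0942).

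**Figure D5:**
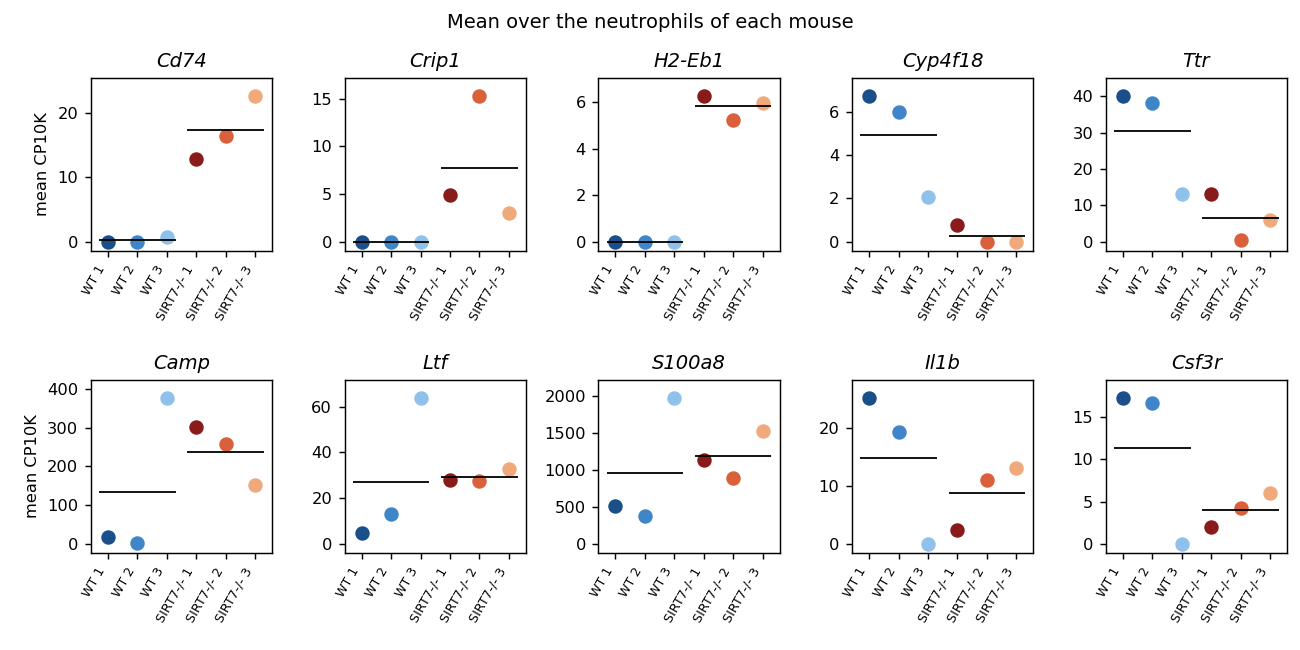
Mean CP10K over the neutrophils of each mouse for 10 genes, 1 point per mouse, with a line at the mean of the 3 mice of each genotype. Cd74, Crip1, H2-Eb1 and Cyp4f18 do not overlap between genotypes, whereas for Camp, Ltf, S100a8, Il1b and Csf3r WT mouse 3 lies apart from WT mice 1 and 2.

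Monocytes, which share the marrow origin of neutrophils, served to show how these cells differ from their nearest kin. They were 179 cells with Ly6c2, Ccr2 and at least 1 of Csf1r, F13a1, Fn1 and Ms4a6c and none of the excluding genes, and the comparison is a description because the rule chose both. Mmp9 was at 17.1, 11.2 and 15 CP10K in WT neutrophils and at 6.19, 8.2 and 26.8 CP10K in SIRT7-/- neutrophils, and at 0 to 0.104 CP10K in the monocytes of the same mice. Lrg1, a secreted leucine-rich glycoprotein, Slpi, an inhibitor of elastase, and Hdc, the enzyme that makes histamine, were higher in the neutrophils of every mouse, at 2.28 to 9.3, 2.3 to 36.7 and 0.334 to 9.51 CP10K. Lcn2 reached 131 CP10K against at most 0.474 CP10K in monocytes. S100a4, a calcium-binding protein of motile cells, was at 8.3 to 29.2 CP10K in monocytes and at 0 to 2.16 CP10K in neutrophils, the protease Ctss at 6.63 to 14.7 against 0 to 0.968 CP10K, and the transcription factor Zeb2 at 5.1 to 6.04 against 0 to 0.528 CP10K. The markers of monocytes were not absent from neutrophils. Their sum was 1.44 to 3.95 CP10K in the WT mice and 3.09 to 8.36 CP10K in the SIRT7-/- mice, and Ly6c2 was detected in 49 of 103 neutrophils of SIRT7-/- mouse 1.

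The genotype difference itself differed between neutrophils and monocytes for 5 of 2741 genes (0.182%), by limma on the difference of both log2 levels within each mouse. Cd74 was at 90.2, 125 and 51.3 CP10K in WT monocytes and 26, 104 and 166 CP10K in SIRT7-/- monocytes, an overlap that contrasts with its values in neutrophils (difference of differences 4.79, limma adjusted p = 0.000109). Crip1 was at 58.1, 36.5 and 56.4 against 30.1, 44.2 and 50.9 CP10K in monocytes (4.01, limma adjusted p = 0.00177). H2-Eb1 and Ifi27l2a were called in the same direction, and Ambp, a hepatocyte protease inhibitor, in the other. In the neutrophils of SIRT7-/- mouse 3, all UMIs of Cd74, Crip1 and H2-Eb1 came from the 1 cell of 22174 UMIs described above. The contrast with monocytes was not repeated without the deepest neutrophils.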

How the data were processed

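Livers of 3 WT and 3 SIRT7-/- mice were measured with the 10x Chromium 3' assay. The authors aligned and counted reads with Cell Ranger 6.0.0 on mm10, kept cells with at least 500 genes and at most 5% mitochondrial UMIs and genes in at least 3 cells, and deposited the natural log of CP10K plus 1. UMIs were recovered from these values, and all came out whole within 0.02. Libraries held 2511947 to 11069411 UMIs. Cells were assigned to mice by barcode ending and are not replicates. Doublets were not removed. The caller, set to an expected rate of 5%, marked 0.396% of cells, with 3 of 5609 in SIRT7-/- mouse 1. It marked 1 neutrophil, in WT mouse 1. Its low count gives no assurance that doublets are absent. No neutrophil barcode was shared between libraries.

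Shares were compared by exact permutation tests. Genes averaging 0.5 CP10K or more across mice entered limma 3.58.1 (R 4.3.3; trend and robust, Benjamini-Hochberg, threshold 0.05) on log2(mean CP10K + 0.5) per mouse. A minimum of 10 neutrophils left 1 SIRT7-/- mouse, so mice with at least 3 cells entered, which were all 6. The fit was tested on simulated data. Cells were handled in Python 3.11.15 with scanpy 1.11.5.

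Named genes were the listed genes, the 5 of smallest p in each direction with at least 2 CP10K, and the 10 of largest difference in each direction between classes or from monocytes. The ranking between classes used SIRT7-/- mouse 1 alone. The members and lists were chosen with earlier results of these data known. Alternatives varied the rule, pseudocount, filter, weights, mice and replicate block. Labels do not say more of the mice than genotype and age.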

Additional observations from a re-analysis of the deposited data

Results flagged for a closer look

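For 5 genes the genotype difference in neutrophils differed from that in monocytes of the same mice, by limma on the log2 difference within each mouse. Cd74 differed by 4.79 (limma adjusted p = 0.000109), with 0, 0 and 0.769 CP10K in WT against 12.8, 16.4 and 22.7 CP10K in SIRT7-/- neutrophils. Crip1 differed by 4.01 (limma adjusted p = 0.00177) and H2-Eb1 by 3.38 (limma adjusted p = 0.0192). H2-Eb1 was at 16.9, 28.9 and 9.96 CP10K in WT and 5.69, 31.2 and 48.2 CP10K in SIRT7-/- monocytes. Ifi27l2a differed by 2.87 (limma adjusted p = 0.0432), with 25.9, 13.4 and 16.8 against 16.1, 44.3 and 34.5 CP10K in monocytes. Ambp differed by -3.52 (limma adjusted p = 0.0432), with 1.98, 6.47 and 2.29 CP10K in WT and 0.568, 0 and 0 CP10K in SIRT7-/- neutrophils, and with 0 in all WT monocytes against 0.283, 0.231 and 1.34 CP10K in SIRT7-/- monocytes. WT monocytes numbered 5, 12 and 17 cells. In SIRT7-/- mouse 3, all neutrophil UMIs of Cd74, Crip1 and H2-Eb1 came from 1 cell of 22174 UMIs, which also held monocyte markers. In SIRT7-/- mouse 2, 1 cell held 42 of 46 UMIs of Cd74. In SIRT7-/- mouse 1, Cd74 was detected in 39 of 103 neutrophils. Without the deepest cells, Cd74, Crip1 and H2-Eb1 did not pass in neutrophils alone. The contrast with monocytes was not repeated without those cells.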

How the results depend on the processing

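The number of neutrophils limits all values, with 5 to 14 cells in 5 of the 6 mice. The share difference was -0.541 points over Ptprc cells, and leaving out each mouse gave -0.317 to 0.441. Among mice with at least 10 neutrophils, the granule-side difference ranged from -27.2 without WT mouse 1 to 65.7 without WT mouse 3, each 1 mouse against 1, and over all 6 mice the same omissions gave 6.18 and 52.6. The count of 29 genes became 1 with a filter at 2 CP10K, 7 without a filter, 51 with voom (42 higher, 9 lower, with the median of all genes at 0.208 in place of -0.119), 57 with mice weighted by cells, 46 in mature-side cells (2 mice against 2) and 1 with at least 4 of the 8 genes. Of alternatives chosen after seeing the data, it became 48 without excluding genes, 11 without cells over 6000 UMIs and 17 in granule-side cells, where WT mouse 3 was the only WT mouse with at least 3 cells and was assumed to vary like the SIRT7-/- mice. Leaving out each mouse gave 4 (without SIRT7-/- mouse 2) to 130 (without WT mouse 3). The count of 5 genes against monocytes became 1 with a pseudocount of 0.1, 0 with a filter at 2 CP10K, and 2 to 9 when each mouse was left out. The cause was not tested. With the replicate block, 1 gene was called in neutrophils and 1 against monocytes, and the exact sign-flip p was 1.0 for the share and 0.5 for the granule-side share. Same-numbered mice had correlations of 0.0306, -0.0881 and -0.0249, so they share only a number. Log2 differences that turned sign, with none called but Il1b without WT mouse 3, were as follows. With a pseudocount of 0.1, Cxcr2 was 0.01 and Csf3r 0.29. Il1b was -0.11 with voom, -1.05 with weights and -0.54 in mature-side cells, where S100a8 was -0.45 and S100a9 -0.24. With at least 4 of the 8 genes, Ltf was -0.31, Cxcr2 0.26 and Csf3r 0.3. In granule-side cells, against WT mouse 3 alone, Camp was -0.07, Ngp -0.3, Ltf -0.45, S100a8 -0.46, S100a9 -0.08, Retnlg -1.13 and Cxcr2 0.33. Leaving out each mouse gave -1.37 to 0.5 for Cxcr2, -2.05 to 0.53 for Csf3r and -1.56 to 1.28 for Il1b. A minimum of 20 neutrophils per mouse could not be run, since it left 1 mouse.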
